A study of Mus musculus with 6 samples.

Results

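The control libraries of an RNA-seq study of cardiac myofibroblasts in pressure overload are described here, 3 of the 6 libraries of the series. They were chosen by their labels (Cre-positive and GFP-positive cells, not labelled as HSP47-deficient), which do not give the *Hsp47* alleles. Each was made from ventricular cells of mice that were sorted for EGFP 4 weeks after the aorta had been narrowed surgically (transverse aortic constriction, TAC), which raises the load on the left ventricle. The mice, males of C57BL/6 background per the study's methods, carried a cDNA for MerCreMer, a tamoxifen-activated Cre recombinase, inserted into the *Postn* locus, and a Cre-dependent EGFP reporter in the Rosa locus, and the labels give operation at 8 to 10 weeks of age with tamoxifen by injection (100 mg/kg) and in chow (40 mg/kg), whereas the study's methods state other doses. EGFP+ cells are therefore cells in which the *Postn* locus was active while tamoxifen was given, together with their descendants, and the level of *Postn* in them was read from a locus that carries the insertion. The 3 control libraries include no mice without TAC, so the values are a profile of sorted cells of the loaded heart and not a response to load.

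The libraries are named control replicates 3, 4 and 2, as in the labels. Replicates 3 and 4 came from a sequencing run called the first run here, and replicate 2 came from another, the second run. The labels do not say how many mice stand behind a library, and the spread between libraries can be technical. The authors deposited log2 values for 28987 genes, and "level" below means that value with the log2 undone (2 to the power of the value, minus 1), in a linear unit that the sources used here do not name. For genes with a single transcript, the lowest levels were multiplied by transcript length less a fitted offset. The products mostly fell on whole multiples of a fitted constant, so levels were taken to be per length. Offset and constant were fitted to the same values, so this is no independent check. Comparisons between genes of unlike length remain limited, because the difference of replicate 2 moved with transcript length, as described further on. The levels summed to 690499 in replicate 3, 759227 in replicate 4 and 809085 in replicate 2. The total number of reads is not given. By the fit above, 1 read in a transcript of 2000 bases was worth a level of 0.0318, 0.0394 and 0.0247 in replicates 3, 4 and 2. A level of 1 in a transcript of that length would thus rest on many reads. By the same fit, 3 reads would correspond to levels of 0.0955, 0.118 and 0.0741 in the same order. Replicate 2 stood apart from the others in many genes, as described further on, and sequencing run and library cannot be told apart because the second run holds 1 control library. No test between groups was made and no p-value is given.

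Fibroblasts build the interstitial matrix of the heart. After injury they become myofibroblasts, which express periostin and contractile proteins and secrete fibrillar collagens, proteoglycans and the glycoproteins that organise them. Collagen chains are hydroxylated and folded in the endoplasmic reticulum with the help of the collagen chaperone Hsp47 (*Serpinh1*), secreted, trimmed by proteases and then cross-linked outside the cell.

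The sequence just before the start of *Postn* is shown because its activity decided which cells were sorted. It lies on chromosome 3 (chr3:54361027-54361106 in GRCm38.p6, plus strand) and ends at the base before the RefSeq start nearest to the annotated start of the gene. The letters TATAAA, searched on the strand of the gene, are in capitals.

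Postn: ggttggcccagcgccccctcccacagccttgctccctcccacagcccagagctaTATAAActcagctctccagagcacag

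The first of these letters lies 26 bases before the start. The same letters begin between 40 and 20 bases before the start in 655 of 32851 RefSeq promoters (1.99%). This is a match of letters and no measurement of factor binding.

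Levels fell steeply with rank. A level of at least 1 was reached by 13228 genes in replicate 3, 14089 in replicate 4 and 14234 in replicate 2, and by 11725 genes in all 3 libraries, of which 10613 were protein-coding genes of the nuclear genome. The 100 genes with the highest mean log2 value held 55.1% of the summed level in replicate 3, 51.1% in replicate 4 and 55.5% in replicate 2. Genes of the mitochondrial genome took a large part of it: the 13 mitochondrially encoded proteins held 29.4%, 23.5% and 28.0% in replicates 3, 4 and 2. The further ranks are therefore given among nuclear protein-coding genes, which held 56.0%, 58.0% and 54.8%.

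Proteoglycans and secreted matrix glycoproteins were frequent at the top of this ranking, beside genes of other functions such as *Lars2*, the mitochondrial leucyl-tRNA synthetase, at rank 1 and *B2m*, the light chain of MHC class I, at rank 4. Whether all reads assigned to *Lars2* came from its own transcript cannot be checked here. Of 158 measured genes on lists of collagens, extracellular matrix (ECM) glycoproteins and proteoglycans, 5 were among the 10 highest nuclear protein-coding genes, 21 among the 100 highest and 56 among the 1000 highest. These 158 genes together held 11.1% of the nuclear protein-coding level in replicate 3, 10.6% in replicate 4 and 10.2% in replicate 2 (mean 10.6% ± 0.452, SD, n = 3). The counts of 5 and 21 were also found without replicate 2. An annotation deposited with the table, the cellular component terms of each gene, gave the same order: 24% of ranks 1 to 100 carried an extracellular matrix term, against 7.5% of ranks 101 to 300, 4.14% of ranks 301 to 1000 and 1.43% of all nuclear protein-coding genes.

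**Figure D1:**
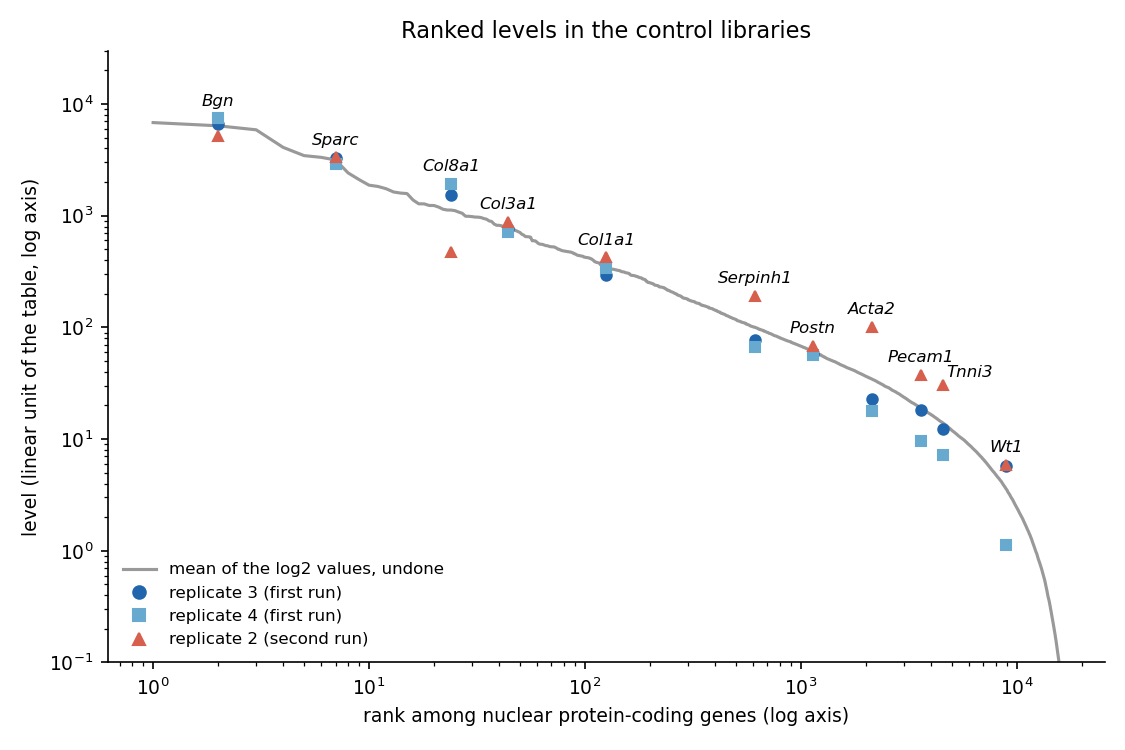
Level of nuclear protein-coding genes against their rank, both on log axes. The grey line is the level of each rank from the mean log2 value, and points are 11 named genes in each library. The points of *Col3a1*, *Col1a1* and *Postn* lay close to the line in the 3 libraries, whereas *Col8a1*, *Serpinh1* and *Acta2* differed in replicate 2.

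The matrix genes with the highest mean log2 values were a pair of small leucine-rich proteoglycans, which bind collagen fibrils and regulate their assembly. *Bgn* (biglycan) ranked 2nd, with levels of 6678, 7463 and 5221 in replicates 3, 4 and 2. *Dcn* (decorin) ranked 3rd, with 5392, 5090 and 7401. Their order differed between libraries: the ratio of *Bgn* to *Dcn* was 1.24 and 1.47 in the first run and 0.705 in the second. *Lum* (lumican) followed at rank 17, with levels of 1238, 1201 and 1404. *Prelp* (prolargin) had levels of 510, 575 and 573, *Ogn* (osteoglycin) 326, 321 and 364, and *Aspn* (asporin) 203, 211 and 238, so these 3 genes varied little between libraries. *Fmod* (fibromodulin) was lower, at 71.9, 112 and 86.2. A pair of large secreted proteoglycans behaved otherwise. *Vcan* (versican) had levels of 1514 and 2956 in replicates 3 and 4 but 421 in replicate 2. *Prg4* (lubricin) had 2109, 3682 and 241. Both were above *Lum* in the first run and below it in the second. Perlecan (*Hspg2*), of basement membranes, had 63.0, 69.7 and 157.

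Among the matrix glycoproteins, *Igfbp7*, which binds insulin-like growth factors, ranked 5th with levels of 3972, 3938 and 2632. *Sparc*, a collagen-binding protein of the secreted matrix, ranked 7th with 3275, 2887 and 3327 and had an SD of only 0.11 on the log2 scale. *Mgp* (matrix Gla protein), an inhibitor of calcification, ranked 6th, with 2349 in both first-run libraries and 6700 in replicate 2. Microfibril proteins formed a further group. *Mfap5* had levels of 909, 811 and 1212, *Mfap4* 603, 643 and 916, and fibrillin-1 (*Fbn1*) 354, 336 and 489, each highest in replicate 2. *Dpt* (dermatopontin) had 1071, 958 and 896, and *Ecm1* had 468, 486 and 465, among the 10 genes with the smallest SD above a mean level of 100. Fibronectin (*Fn1*), the early scaffold on which collagen is laid down, had levels of 283, 327 and 265 at rank 169. The matricellular gene *Ctgf* had 587, 550 and 659, while *Thbs1* (thrombospondin-1) had 772 and 925 in the first run and 207 in the second.

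Of 44 collagen genes in the table, 28 had a level of at least 1 in all 3 libraries, and the whole list held 0.663%, 0.656% and 0.537% of the summed level in replicates 3, 4 and 2. The highest was *Col8a1*, a short-chain network collagen, at 1533 and 1935 in replicates 3 and 4 and 477 in replicate 2. In replicate 2 it was below *Col3a1* and *Col1a2*. The fibrillar chains were steadier. *Col3a1*, the chain of type III collagen, ranked 44th, with levels of 764, 712 and 885. *Col1a2* had 474, 479 and 552, and *Col1a1* had 293, 339 and 426 at rank 125. Type I collagen is assembled from more α1 than α2 chains, and the ratio of the *Col1a1* to the *Col1a2* level was 0.619, 0.709 and 0.771 (mean 0.700 ± 0.0764, SD, n = 3). The level of *Col3a1* was 2.60, 2.10 and 2.08 times that of *Col1a1* in replicates 3, 4 and 2. *Col5a1* and *Col5a2*, whose products set the diameter of type I fibrils, had levels of 60.2, 66.0 and 85.6 and of 80.5, 101 and 105.

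Collagens outside the fibrils were also abundant. *Col15a1*, of the basement membrane zone, had levels of 529, 463 and 490 and nearly equalled *Col1a2*. The type IV chains of basement membranes, *Col4a1* and *Col4a2*, are transcribed from a shared start region in opposite directions, and had levels of 123, 130 and 140 and of 104, 127 and 123. Their ratio was 1.19, 1.02 and 1.14. *Col6a1* and *Col6a2*, which form beaded microfibrils, had 112, 112 and 187 and 175, 179 and 332, with a ratio of 0.642, 0.625 and 0.562, so the type VI chains kept their proportions while both were highest in replicate 2. *Col14a1*, which sits on the surface of fibrils, had 91.9, 69.2 and 143, and *Col12a1*, of the same kind, had 40.8, 49.7 and 35.2.

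**Figure D2:**
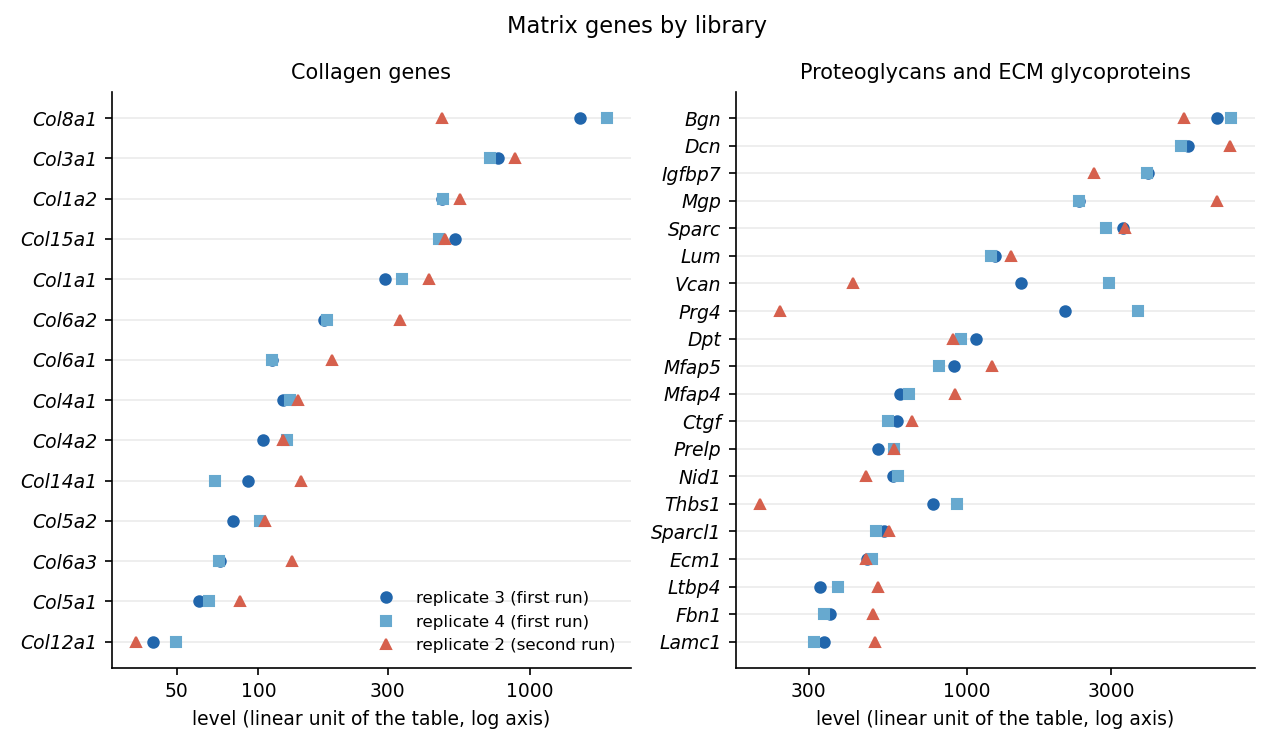
Level (log axis) in each library of the 14 highest collagen genes (left) and of the 20 highest proteoglycan and ECM glycoprotein genes (right). *Col8a1*, *Vcan*, *Prg4* and *Thbs1* lay far lower in replicate 2 and *Mgp* higher, and most other genes had points close together.

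Genes for folding, modifying and cross-linking collagen were measured in nearly full number, with 34 of 36 at a level of at least 1 in all 3 libraries, and none was among the 100 highest nuclear protein-coding genes. *Serpinh1*, the gene that the series deletes in its other group, was not labelled as deficient here, and had levels of 76.9, 67.4 and 193 at rank 615. It was about 0.262 and 0.198 times *Col1a1* in the first run and 0.453 times in the second. The highest of the group by mean log2 value was *Pdia3*, a disulfide isomerase, at 367, 331 and 186, although *Plod2* was above it in replicate 4 and *Pcolce*, *P4hb* and *Serpinh1* in replicate 2. *P4hb*, a subunit of the prolyl 4-hydroxylase that stabilises the triple helix, had 156, 180 and 242. *Plod2*, a lysyl hydroxylase that directs cross-links, had 282 and 385 in the first run and 80.8 in the second. *Pcolce*, which enhances removal of the C-propeptide, moved the other way, with 121, 103 and 382. *Crtap*, part of the prolyl 3-hydroxylation complex, was steady at 160, 168 and 141. Of the cross-linking oxidases, *Loxl2* had 159, 172 and 120 and was above *Lox* at 72.6, 105 and 39.8. *Loxl1* had 26.9, 18.7 and 98.4.

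The list of matrix proteases and their inhibitors was led by members of the serpin and TIMP families. *Serpinf1*, which encodes a serpin without protease inhibitor activity, had levels of 648, 669 and 1145, and *Serping1*, the C1 inhibitor, had 685, 543 and 1132. The tissue inhibitors of metalloproteinases *Timp3* and *Timp2* had 470, 418 and 445 and 473, 455 and 358. The highest matrix metalloproteinase, *Mmp2*, which cleaves denatured collagen, had 331, 296 and 348, and its activator *Mmp14* had 46.1, 53.4 and 70.7. Stromelysin-1 (*Mmp3*) was near the lower end, at 1.57, 4.99 and 1.11. Of the complement genes, *C3*, the central component of the cascade, had 167, 136 and 298.

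The labelled cell type was checked against markers. All 15 fibroblast markers had a level of at least 1 in every library, 8 of them among the 100 highest nuclear protein-coding genes, and their median log2 value was 8.89, 8.91 and 9.11 in replicates 3, 4 and 2. In every library this median was the value of *Col1a2*. The list includes collagens and proteoglycans already ranked above, so its median is no check of cell type apart from matrix abundance. *Gsn* (gelsolin) had levels of 1218, 1235 and 4062. *Pdgfra*, the PDGF receptor used to mark cardiac fibroblasts, had 58.9, 45.5 and 100. *Tcf21*, the transcription factor of resident fibroblasts, had 26.9, 29.3 and 87.4, and *Thy1* had 8.37, 8.97 and 41.0. Resident fibroblast markers were thus present beside the matrix genes in each library.

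Markers of activated fibroblasts were present but lower. All 16 had a level of at least 1 in every library, none ranked among the 100 highest, and their median log2 value was 5.65, 5.84 and 6.28. *Postn*, which drove the Cre recombinase, had levels of 57.3, 56.9 and 68.5 and ranked 1138th. It was 0.195, 0.168 and 0.161 times *Col1a1*. *Thbs4* had 280, 451 and 270, and *Cilp*, a matrix protein of cartilage and stressed heart, had 158, 178 and 212, so both were above *Postn*. *Comp* had 29.9, 28.4 and 101, and *Meox1*, a transcription factor of activated fibroblasts, had 40.5, 26.9 and 119. *Tnc* (tenascin-C) had 42.3, 55.7 and 19.6. *Cthrc1* was low, at 15.0, 18.5 and 13.1. In sorted cells, fewer cells that express a gene and less of its RNA per cell cannot be told apart.

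The contractile genes were mostly those of general cytoskeleton. *Vim* (vimentin), the intermediate filament of mesenchymal cells, ranked 13th with levels of 1710, 1419 and 1786, and *Actb*, a non-muscle actin, had 945, 663 and 2728. *Acta2*, the smooth muscle α-actin that defines the contractile myofibroblast, had 22.7 and 17.7 in the first run and 101 in the second. *Tagln* had 12.1, 8.03 and 46.2, and *Myl9*, the regulatory light chain, had 6.44, 6.16 and 47.7. *Cnn1* was under 1 in the first run, at 0.311 and 0.582, and at 2.06 in replicate 2. *Acta2*, *Tagln*, *Myl9* and *Cnn1* were thus low in replicates 3 and 4 beside *Vim*, and several-fold higher in replicate 2. Of 32 list members with a mean level of at least 1, 12 were at least 2-fold above both other libraries in replicate 2. *Cald1* (caldesmon) was the 1 member as far below both, at 382, 459 and 182. The shares of all genes with such a mean were 17.0% above and 8.99% below.

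**Figure D3:**
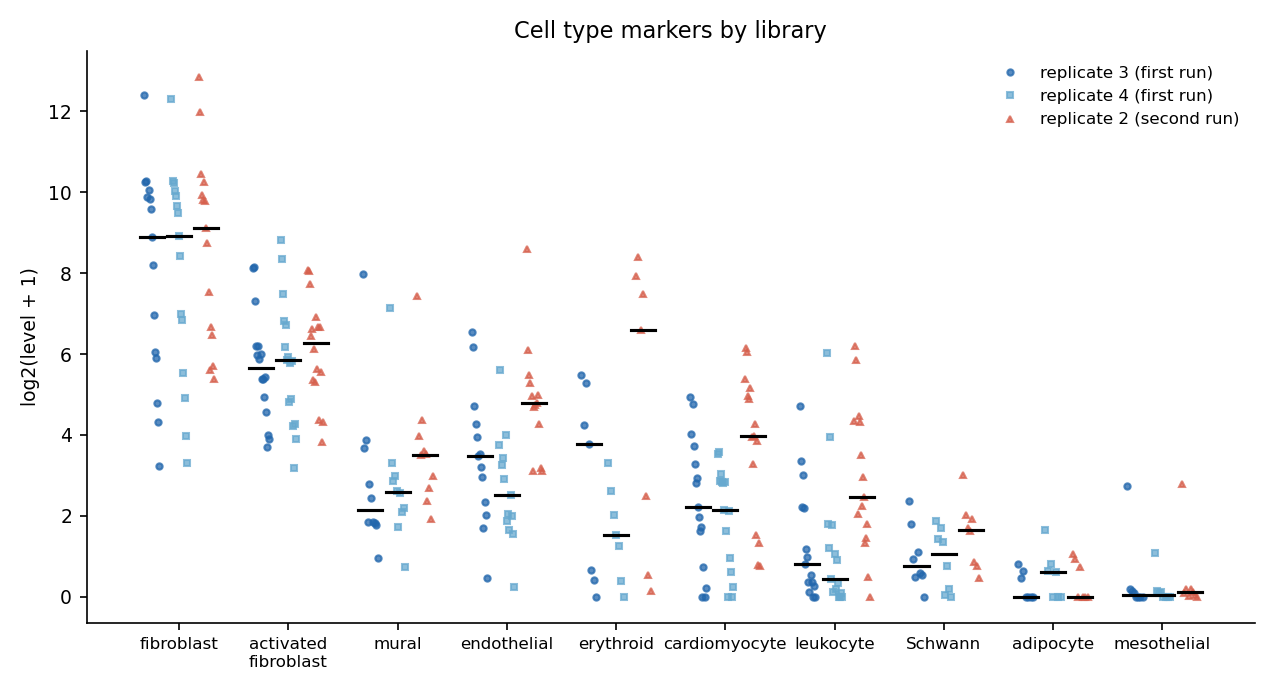
Log2(level + 1) of each marker in each library for 10 cell type lists, with black bars at the medians. Fibroblast medians lay at 8.89, 8.91 and 9.11, and every list except the adipocyte markers had its highest median in replicate 2.

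The median of each list of markers of other cells of the heart was below the fibroblast median in every library, although single markers overlapped. Because the fibroblast median is that of a collagen gene, this order in part restates the abundance of matrix genes. For 13 endothelial markers the median log2 value was 3.47, 2.52 and 4.80 in replicates 3, 4 and 2, and their summed level was 267, 118 and 713. *Pecam1* (CD31) had levels of 18.3, 9.71 and 37.8, *Cdh5* 25.5, 8.48 and 43.9, and *Fabp4* 92.5, 12.5 and 384. *Tek*, an endothelial receptor kinase, had 71.0, 47.9 and 67.6, which was above *Pdgfra* and *Tcf21* in the first run and not higher in replicate 2. *Pecam1* was also above *Thy1* in the first run. For 15 cardiomyocyte markers the median was 2.21, 2.13 and 3.97, with *Myl2* at 15.1, 10.9 and 70.5 and *Tnnt2* at 26.2, 6.26 and 65.7. For 15 leukocyte markers the median was 0.82, 0.43 and 2.46. *Ptprc* (CD45), which defines leukocytes, was listed at 0 in all 3 libraries, while *Cd74* had 9.30, 2.49 and 71.9 and *Lyz2* had 3.68, 1.29 and 56.7. *Cd68* had the opposite order, with 25.4, 63.6 and 19.2. For 10 mural markers the median was 2.14, 2.59 and 3.51, and *Rgs5*, of pericytes, was high in every library at 253, 139 and 172. For 7 erythroid markers the median was 3.77, 1.53 and 6.60, which in replicate 2 was above the activated fibroblast median of 6.28. Hemoglobin genes were lowest in replicate 4 and highest in replicate 2, with *Hba-a2* at 44.0, 8.86 and 241. Mesothelial, adipocyte and Schwann markers had medians of at most 1.66 in any library. *Wt1* was the exception among mesothelial markers, at 5.71, 1.12 and 5.86.

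Genes of the TGF-β pathway, which drives fibroblasts to make matrix, were measured across their roles. The ligand *Tgfb2* had levels of 65.6, 91.9 and 25.2, *Tgfb3* 23.2, 15.6 and 55.5, and *Tgfb1* 15.8, 15.7 and 28.8, so the order of the ligands differed in replicate 2. Of the latent binding protein genes, whose products associate with matrix, *Ltbp4* had 326, 374 and 507 and *Ltbp1* 104, 117 and 70.3, above the ligands. *Ltbp2* at 61.7, 70.7 and 97.4 and *Ltbp3* at 25.2, 27.4 and 46.7 were not above every ligand in each library. The receptor *Tgfbr2* had 74.0, 78.5 and 92.9 and *Tgfbr1* 45.4, 52.2 and 38.7. The signal transducers *Smad2* and *Smad4* were steady, at 37.1, 35.0 and 28.5 and at 42.0, 48.5 and 41.5, while *Smad3* had 84.5, 118 and 39.0. *Inhba*, which encodes the subunit of activin A, had 581 and 1175 in the first run and 44.1 in replicate 2. *Fstl1* was the highest of the list, at 946, 1053 and 973, with an SD of 0.08 on the log2 scale.

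Secreted signals were led by inflammatory genes. *Cxcl1*, a neutrophil chemokine, ranked 9th with levels of 2475, 2648 and 1422. *Il6* had 1516, 1890 and 193, which is rank 17 in both first-run libraries and rank 320 in replicate 2. *Ccl2*, a monocyte chemokine, had 258, 251 and 75.3, and *Csf1*, a macrophage growth factor, had 216, 274 and 65.1. *Cxcl1*, *Il6*, *Ccl2* and *Csf1* were thus lower in replicate 2 than in both other libraries. The Wnt antagonist *Sfrp1* was also lowest there, by less, with 199, 168 and 139. *Igf1* and *Cxcl12* were higher in replicate 2, with 136, 121 and 267 and with 14.0, 10.3 and 63.3. Of 48 growth factor and cytokine genes with a mean level of at least 1, 9 were at least 2-fold higher and 9 at least 2-fold lower in replicate 2 than in both other libraries, against 17.0% and 8.99% of all genes with such a mean, so the upward share was near that of all genes.

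Receptors for matrix and signals lay in the middle of the range. *Lrp1*, an endocytic receptor, had levels of 190, 250 and 278, and integrin β1 (*Itgb1*), the partner of most collagen receptors, had 151, 155 and 187. *Itga11*, a collagen-binding integrin of fibroblasts, had 17.6, 16.1 and 22.0. *Ddr2*, a collagen receptor kinase, had 65.8, 113 and 47.7. The hyaluronan receptor *Cd44* had 289 and 455 in the first run and 73.9 in the second, and *Il1r1* had 196, 238 and 45.1. Of the transcription factors, *Zeb1* had 149, 193 and 124 and *Tbx20*, of heart development, was steady at 94.8, 94.0 and 90.8. *Gata4* had 32.1, 46.6 and 36.4, and *Runx1* had 59.1, 90.8 and 14.2.

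Proliferation genes were low in all 3 libraries. Of 36, 23 had a level of at least 1 in every library, and the median log2 value was 1.66, 1.92 and 2.21. *Mki67*, which marks cycling cells, had levels of 3.32, 3.25 and 5.64, and *Top2a* had 10.6, 14.2 and 11.5. *Pcna*, also used in repair, was higher at 142, 132 and 123. Cell cycle inhibitors had a median of 4.39, 3.87 and 4.48, led by *Cdkn1a* (p21) at 405, 418 and 689 and rank 78.

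Agreement between libraries followed the runs. Across 12520 nuclear protein-coding genes with a mean level of at least 1, Pearson's r of the log2 values was 0.948 between replicates 3 and 4, 0.840 between 3 and 2 and 0.771 between 4 and 2. These are correlations across genes, which are not independent replicates, and each pair shares a transcript annotation and gene lengths. Of the 100 highest genes in each library, 85 were shared by replicates 3 and 4, 51 by 3 and 2 and 44 by 4 and 2. The median SD between libraries was 0.54 on the log2 scale over 14530 genes with a mean level of at least 1 (quartiles 0.32 and 0.85). For pairs of libraries, where an SD rests on fewer values, it was 0.27 between replicates 3 and 4. The other pairs had 0.50 between 3 and 2 and 0.61 between 4 and 2. Genes were filtered by the mean of each pair. The spread was not confined to low genes: among the nuclear protein-coding genes the median SD was 0.54 for levels of 1 to 10, 0.46 for 10 to 100 and 0.60 for 100 to 1000. The median gap between replicates 3 and 4 fell with level, at 0.40, 0.30 and 0.22 in the same order. The median absolute difference of replicate 2 from their mean was 0.72, 0.67 and 0.95. The steadiest genes above a mean level of 100 were *Ptbp1*, a splicing regulator, at 177, 177 and 174, and *Magoh*, of the exon junction complex, at 109, 108 and 111. *Eef1g*, *Sdc2*, *Ptp4a2*, *Fkbp1a*, *Xbp1*, *Hsp90b1*, *Ecm1* and *Capns1* followed, with SDs of 0.026 to 0.038.

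A gene was said to stand apart in a library where its log2 value lay at least 1 (2-fold) above or below both other libraries. In replicate 2, 2470 of 14530 genes (17.0%) stood apart upward and 1306 (8.99%) downward, whereas replicate 4 had 790 (5.44%) and 303 (2.09%) and replicate 3 had 144 (0.991%) and 324 (2.23%). Set against replicate 4 alone, 3116 genes were at least 2-fold lower in replicate 2, and 1522 set against replicate 3 alone. The upward share in replicate 2 moved with scaling: centring each library on its median shifted every difference of replicate 2 from the first run by -0.248 on the log2 scale and gave 1701 upward and 2250 downward, and quantile normalization gave 1946 and 1847. The shift also moved with transcript length. Among nuclear protein-coding genes, the median difference of replicate 2 from the mean of the first run was 0.55 on the log2 scale for the 81 genes with a longest transcript under 500 bases, 1.39 for 500 to 1000 bases, 0.59 for 1000 to 2000, 0.20 for 2000 to 4000 and -0.07 from 4000 bases. The part of transcript length in the single genes below was not tested.

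**Figure D4:**
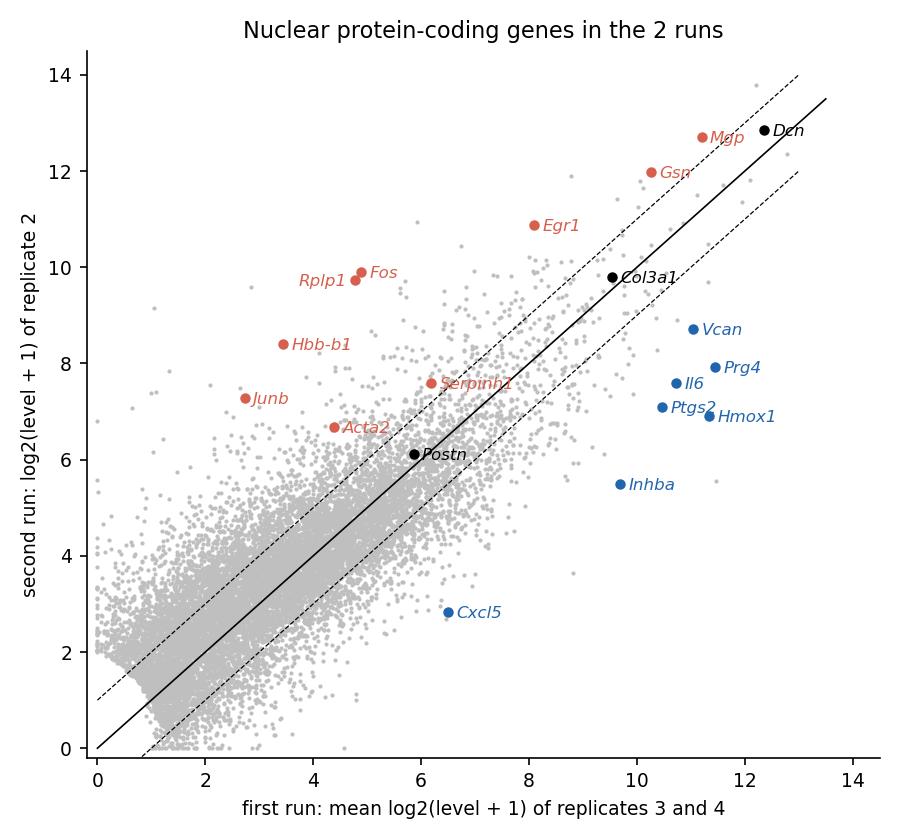
Log2(level + 1) in replicate 2 against the mean of replicates 3 and 4 for nuclear protein-coding genes with a mean level of at least 1. The solid line marks equal values and the dashed lines a 2-fold difference; genes named in red lay above both first-run libraries, genes in blue below both, and *Dcn*, *Col3a1* and *Postn* (black) lay near the line.

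Immediate early genes, transcribed within minutes of a stimulus, were higher in replicate 2 in most of their members. Of 25 with a mean level of at least 1, 17 stood apart upward in replicate 2 and 3 downward, against 17.0% and 8.99% of all genes. *Fos* had levels of 43.0 and 18.9 in the first run and 954 in replicate 2, which moved it from rank 1690 and 3863 to rank 40. *Egr1* had 275, 269 and 1883, *Jun* 37.0, 28.9 and 406, and *Junb* 5.69, 5.55 and 155. *Zfp36*, which destabilises cytokine mRNA, had 535, 358 and 1111. The 3 members that were lower in replicate 2 were *Fosl1* at 176, 253 and 21.8, *Myc* at 393, 446 and 132, and *Klf6* at 385, 445 and 181. The directions of *Fos*, *Egr1* and *Junb* were the same with centred and quantile-normalised values.

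Ribosomal protein genes were higher as a group: 54 of 78 stood apart upward and 0 downward, against 17.0% and 8.99% of all genes. Of all nuclear protein-coding genes with a longest transcript under 500 bases, 44.4% stood apart upward, and 51.5% of those from 500 to 1000 bases. The ribosomal share of the summed level was 2.33%, 1.53% and 4.76% in replicates 3, 4 and 2. *Rplp1* had levels of 29.4, 23.9 and 849. *Rpl18* had 2213 in replicate 3, 113 in replicate 4 and 575 in replicate 2. These genes have short transcripts and many processed copies in the genome, and counts split between copies cannot be checked in this table. Among the groups of other cell types, 5 of 5 erythroid, 8 of 10 leukocyte, 10 of 13 endothelial and 9 of 12 cardiomyocyte markers with a mean level of at least 1 stood apart upward in replicate 2, against 17.0% of all genes. After centring on the median these counts were 4 erythroid, 7 leukocyte, 6 endothelial and 6 cardiomyocyte markers, with 1 leukocyte marker downward, and quantile normalization gave 5, 7, 7 and 8 in the same order. The mean behind the filter includes replicate 2, so a marker high only there could pass it and then be counted as upward. A level of at least 1 was reached by 6 of 15 leukocyte markers in replicate 3, 6 in replicate 4 and 13 in replicate 2. The marker counts are therefore not independent of the filter. Immunoglobulin and granulocyte genes were among the 10 genes that lay farthest above: *Igkc* had 2.46, 0 and 1074, and *S100a8* had 1.44, 0.638 and 165. The part of these cells in the other differences of replicate 2 was not tested. The fibroblast markers had 4 of 15 upward (26.7%) and the collagens 4 of 34 (11.8%), against 17.0% of all genes. Downward there was 1 collagen (2.94%), against 8.99% of all genes. With a pseudocount of 5 the upward collagens numbered 2, and the upward calls over all genes numbered 1235.

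**Figure D5:**
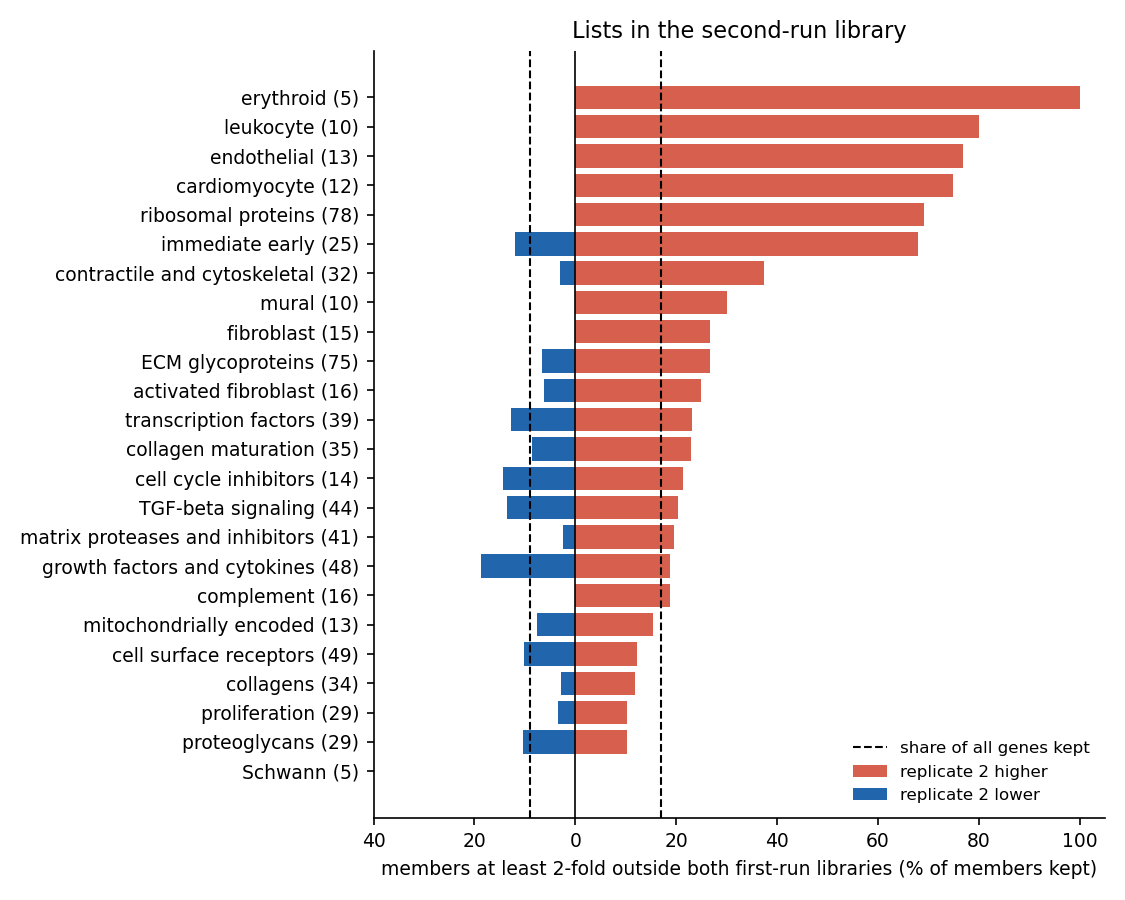
Share of the members of each list (kept members in brackets) that lay at least 2-fold above (red, right) or below (blue, left) both first-run libraries in replicate 2. Dashed lines mark 17.0% and 8.99%, the shares of all genes. Collagens (11.8%) and proteoglycans (10.3%) lay below the upward line, as did lists such as cell surface receptors (12.2%) and proliferation (10.3%). ECM glycoproteins (26.7%) lay above it. Members were kept by a mean level that includes replicate 2.

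Genes lower in replicate 2 included stress and inflammatory genes that were among the most abundant in the first run. *Hmox1* (heme oxygenase-1) ranked 14th and 8th in replicates 3 and 4, with levels of 2040 and 3300, and 512th in replicate 2, with 119. *Ptgs2* (cyclooxygenase-2) had 1195, 1676 and 136, and *Ptx3*, a soluble pattern recognition protein, had 421, 538 and 59.6. *Cxcl5* had 70.9, 113 and 6.10, and *Ereg* (epiregulin) had 65.8, 115 and 5.46. Asparagine synthetase (*Asns*) had 69.5, 94.3 and 6.79, and *Mthfd2*, an enzyme of mitochondrial folate metabolism, had 64.6, 71.8 and 7.93. For *Il6*, *Inhba*, *Prg4* and *Hmox1*, replicate 2 lay 2.97, 3.69, 3.12 and 4.09 below the lower first-run library on the log2 scale, and the difference kept its direction with centred and quantile-normalised values. *Kif2a* differed between all 3 libraries, at 919, 8701 and 46.1, and so no typical control level can be given for it.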

How the data were processed

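Total RNA of sorted EGFP+ cells was amplified before library construction and sequenced, per the labels. The submitters' processing notes name kallisto and mm10, and the study's methods name AltAnalyze; their settings are not given in the sources used here. The authors deposited log2 values of (value + 1) per gene, with the linear unit not named. The 3 control columns were read, matched by label; columns of the other group and the authors' own comparison of the groups (fold, p-values) were not used. Levels are 2 to the power of the log2 value, minus 1. The values are not counts, so no count model was used.

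Genes were ranked by the mean log2 value over replicates 3, 4 and 2. Spread is the SD of the log2 values (n = 3) among genes with a mean level of at least 1. Biotypes, positions and the longest transcript were taken from GENCODE release M21 (GRCm38), which held 27458 of 28987 genes; nuclear protein-coding genes exclude the mitochondrial genome. The whole-multiple check used transcript length less an offset of 280, 290 and 200 bases in replicates 3, 4 and 2. Offset and constant were fitted to the same values. The check found 80.1%, 76.4% and 75.8% of low values within 0.1 of a whole read in the same order. Promoter sequence is RefSeq GRCm38.p6.

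The members and gene lists were chosen with earlier results of these data known. Lists were 23 written by hand and 3 by symbol, and 2 listed symbols were not in the table. Named genes were the 30 highest, the 10 highest collagens, the 5 highest of each other list, *Serpinh1*, *Dcn*, *Col1a1*, *Col3a1* and *Postn*, the 10 genes with the smallest and the largest SD, and the 10 farthest above and below in replicate 2. Other members of lists, and nuclear protein-coding genes that met the same rules, were named after their values were seen. Some genes that the rule names are not reported here. The code for spread and calls was run on simulated data with less spread than these libraries, which checks the code and not the calls made here. Python 3.11.15, pandas 2.3.3, numpy 2.4.6 and matplotlib 3.10.9 were used.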

Additional observations from a re-analysis of the deposited data

How the results depend on the processing

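No paired analysis was possible because no groups were compared and no test was made. The share of the 100 highest genes (53.9% of the summed level) was 28.5% among nuclear protein-coding genes rescaled to a common sum and 50.3% without pseudogene copies and predicted genes; the collagen share (0.619%) was 1.10% and 0.742% under the same settings, whose smaller denominators account for the difference. Genes at a level of at least 1 in all libraries (11725) fell to 6973 at a level of at least 5. The median SD (0.54) was 0.28 without a filter on low values and 0.33 with a pseudocount of 5. Genes standing apart upward in replicate 2 (2470) numbered 1448 at a mean level of at least 5 and 1235 with a pseudocount of 5, and those downward (1306) numbered 678 with a pseudocount of 5 and 2250 after centring. Leaving out each library in turn gave 53.3% to 55.3% for the 100 highest genes, 12207 to 12462 genes detected, 0.597% to 0.660% for collagens, 16 matrix genes among the 100 highest of all genes (18 with all libraries), 8.90 to 9.01 for the fibroblast marker median, and 0.27 to 0.61 for the median SD, which was lowest without replicate 2. Genes standing apart in replicate 2 numbered 3324 to 3397 upward and 1522 to 3116 downward, with 1 comparison library, and cannot be counted without replicate 2. Downward calls rose most without replicate 3. By mean linear level, *Col1a1* ranked 188th and *Postn* 1334th among all genes, against 158th and 1217th by mean log2.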

Other observations

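The highest rows of the table were not nuclear protein-coding genes. Of the 30 rows with the highest mean, 12 were mitochondrially encoded, 13 nuclear protein-coding and 5 predicted genes or pseudogene copies. *mt-Nd4l* and *Gm10222*, a pseudogene copy on chromosome 1, had the same values in every library (31204, 45607 and 7995 in replicates 3, 4 and 2), and 8 rows shared all values with another row. *mt-Co1*, a subunit of cytochrome c oxidase, had levels of 41972, 32366 and 28152. *mt-Atp8* had 3532 and 2669 in the first run and 85429 in replicate 2, unlike its neighbour *mt-Atp6* at 16691, 12784 and 13724. *Gm12913*, for which no annotation entry was found, had 17220, 17423 and 71339. How reads shared between copies were assigned cannot be checked in this table. The part of read assignment or of transcript length in the values of such rows was not tested.

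The nuclear protein-coding gene with the highest mean log2 value, *Lars2*, the mitochondrial leucyl-tRNA synthetase, had levels of 5014, 4476 and 14140. How reads were assigned to it cannot be checked in this table either. Several pseudogene copies were at 0 in some libraries and high in others, such as *Gm9385*, listed at 0 in replicates 3 and 4 and at 1208 in replicate 2, and *Gm10780*, at 724 in replicate 3 and listed at 0 in the others.

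Among non-coding genes, *Gas5*, a host of small nucleolar RNAs, was the most even at high level, with 958, 1099 and 1199. *Mir22hg*, the host gene of a microRNA, had 127, 281 and 128, and *Tug1* had 27.8, 32.1 and 31.7. *Airn*, an antisense transcript of the *Igf2r* locus, had 82.4, 128 and 62.6, while *Igf2r* had 47.2, 46.1 and 100. The kit is not stated to keep strand, so reads from *Airn* and from *Igf2r* where they overlap cannot be told apart.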
